A study of Homo sapiens with 6 samples.

Results

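The genes described here encode the subunits of the oxidative phosphorylation machinery that are made from nuclear DNA, together with the close relatives of these subunits. They were chosen by symbol alone, as names starting with NDUFA, NDUFB, NDUFC, NDUFS or NDUFV and a digit, with UQCR, COX4 to COX8 or ATP5, or equal to SDHA, SDHB, SDHC, SDHD or CYC1. Pseudogene names and hyphenated names were dropped, and at least 10 estimated counts were required in at least 3 of the 6 libraries. Of 58884 genes in the deposited table, 80 met these conditions. They comprise 36 complex I, 4 complex II, 9 complex III, 12 complex IV and 18 complex V genes, with NDUFA4 counted in complex IV and the hypoxia-linked relative NDUFA4L2 kept apart. The rule itself uses no measured difference between the groups, but the set was chosen with earlier results of these data known. A further 8 symbols fell under the count minimum.

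The RNA came from human immortalized ventricular cardiomyocytes. Negative control siRNA (NC) had been given to 3 samples and siRNA against the cold-inducible RNA-binding protein CIRBP (SiCIRBP) to the other 3. The sample labels name the line T0519, whereas the text of the study names AC16 for its RNA-seq. Neither the time after transfection nor the siRNA sequences are given in the sources used here, and nothing states that the 3 libraries of a group came from separate cultures, so that p-values measure the spread between these libraries, which may be technical. The study left NC_1 and SiCIRBP_2 out of its own test because they stood apart from their groups, and the values reported first therefore use NC_2, NC_3, SiCIRBP_1 and SiCIRBP_3.

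Oxidative phosphorylation passes electrons from NADH (complex I) or succinate (complex II) through coenzyme Q, complex III and cytochrome c to oxygen at complex IV. Complexes I, III and IV pump protons out of the mitochondrial matrix as they do so, and complex V, the ATP synthase, lets them flow back through its membrane part to drive ATP production by its F1 head. Most subunits are nuclear and are imported as proteins, a few are encoded by mitochondrial DNA, and heart muscle is known for its dense mitochondria and high demand for both sets.

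NRF1 and the ETS-family factor GABP are textbook regulators of these nuclear genes. The stretches below show sites of both kinds upstream of a RefSeq transcript start of genes that rose after CIRBP siRNA. RefSeq promoter windows of 250 bases before to 50 bases after the transcript start (GRCh38.p14) were matched for 66 of the 80 genes. Each stretch is written in the direction of its gene, and capitals mark a match on either strand to the ETS motif CCGGAAG (ATP5MD, ATP5PF, ATP5PD and NDUFB7) or to the NRF1 motif, GCGCA followed by any base and GCGC (ATP5MPL and NDUFA11), the marked bases in ATP5MD holding 2 overlapping matches on opposite strands.
ATP5MD: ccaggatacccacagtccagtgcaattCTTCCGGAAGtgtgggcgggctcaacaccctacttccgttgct
ATP5PF: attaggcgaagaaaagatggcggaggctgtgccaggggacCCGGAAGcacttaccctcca
ATP5MPL: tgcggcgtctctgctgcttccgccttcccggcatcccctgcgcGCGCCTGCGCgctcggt
ATP5PD: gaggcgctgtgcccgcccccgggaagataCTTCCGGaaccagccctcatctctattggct
NDUFA11: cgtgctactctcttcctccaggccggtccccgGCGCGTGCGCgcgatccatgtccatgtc
NDUFB7: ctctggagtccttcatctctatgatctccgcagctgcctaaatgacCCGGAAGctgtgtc

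All 6 stretches lie on the minus strand. They are chr10:103396596-103396665 for ATP5MD (ATP5MK in RefSeq), chr21:25735065-25735124 for ATP5PF, chr14:103921530-103921589 for ATP5MPL (ATP5MJ in RefSeq), chr17:75047040-75047099 for ATP5PD, chr19:5903861-5903920 for NDUFA11 and chr19:14572077-14572136 for NDUFB7. The ETS letters occurred in 20 of the 66 matched windows (30.3%) and in 10.3% of all 35116 windows, and the NRF1 letters in 16 (24.2%) and 5.78%. At least 1 of the 2 motifs was present in 33 of the 66 windows (50%), against 14.9% of all windows. All windows here means every promoter in the reference, whether or not its gene was expressed in these cells. Genes with ETS letters had a median log2 fold change of 0.24 and 6 of 20 were called higher (30%) in the edgeR test described below, against 0.18 and 8 of 46 (17.4%) without them. For the NRF1 letters the values were 0.20 and 3 of 16 (18.8%) with and 0.19 and 11 of 50 (22%) without. None of these differences was tested. Members without a matched window include ATP5F1B, ATP5F1D, ATP5MC3, ATP5MF, COX6C, CYC1, NDUFA4, NDUFB5, NDUFB9, NDUFC2, NDUFS5, SDHC and UQCRB.

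Library totals ranged from 25726259 to 29919566 estimated counts. CIRBP itself, the siRNA target, stood at 86.4, 85.8 and 91.0 CPM (counts scaled to a common library size, with TMM factors) in NC_1, NC_2 and NC_3 and at 54.8, 24.3 and 46.3 CPM in SiCIRBP_1, SiCIRBP_2 and SiCIRBP_3, so that every SiCIRBP library was below every NC library (log2 fold change -0.81 ± 0.11 over 4 libraries, adjusted p = 0.00828, edgeR). Over all 6 libraries CIRBP had -1.07 ± 0.26 and did not pass (adjusted p = 0.103, edgeR). Markers of mature cardiomyocytes were nearly absent: of 12, 8 had under 10 counts in every library and 4 of these had none at all, the 8 including the sarcomere genes TNNT2, MYH6, MYH7 and MYL2. The summed level of the 12 ranged from 19.1 to 31.2 CPM, while 8 fibroblast markers summed to between 2175 and 6056 CPM, and COL1A1 gave most of that sum. Markers of endothelial cells, smooth muscle and macrophages summed to 35.8 to 55.4, 37.5 to 97.3 and 9.18 to 15.1 CPM. Interferon-stimulated genes (28 listed) summed to 805, 821 and 807 CPM in the NC libraries and to 438, 7232 and 1362 CPM in SiCIRBP_1, SiCIRBP_2 and SiCIRBP_3, with 1 call over the 4 libraries (IFITM1, which fell by 0.83 on the log2 scale), and what part the state of SiCIRBP_2 has in the values below was not tested. In bulk RNA, fewer cells of a type and less RNA per cell cannot be told apart.

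The subunit genes were abundant. In TPM, which is scaled by transcript length so that levels of different genes can be set side by side, their mean over the 6 libraries ranged from 1.31 (NDUFA4L2) to 1352 (UQCRB, a small matrix-side subunit of complex III), with a median of 192. Together they made up between 2.16% and 2.81% of all transcripts in a library. Medians of the complexes were 149 TPM for complex I, 137 for complex II, 214 for complex III, 355 for complex IV and 314 for complex V.

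**Figure D1:**
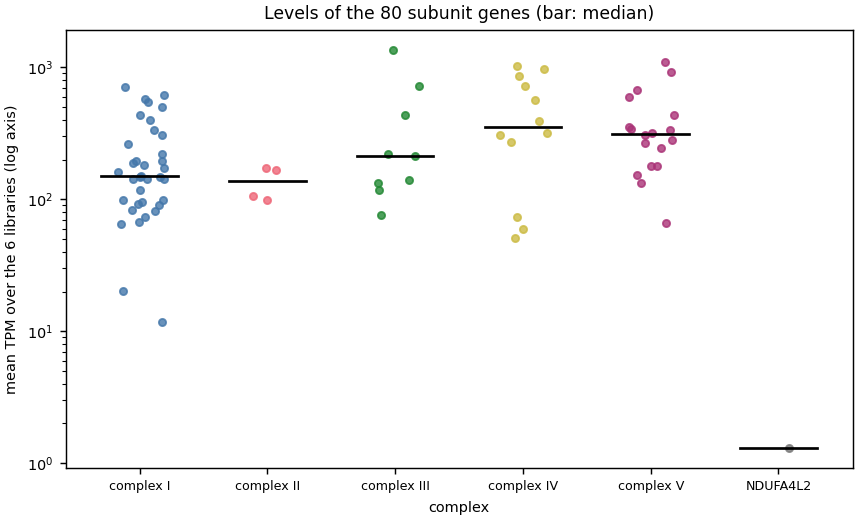
Mean TPM over the 6 libraries (log axis) of each of the 80 subunit genes, by complex. Points are genes and bars are medians. Complex I spans 11.7 (NDUFV3) to 711 TPM (NDUFS5), and NDUFA4L2 lies far below all complexes at 1.31 TPM.

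Within complexes the order was wide. The most abundant complex I gene was NDUFS5, an accessory subunit, at 640.4 ± 80.4 TPM in NC and 782 ± 91.5 TPM in SiCIRBP (SD, n = 3 each). NDUFV3, an accessory subunit of the NADH-oxidizing module, was the least abundant at 11.7 ± 0.666 and 11.7 ± 1.46 TPM. In complex V the membrane subunit ATP5MF led with 972 ± 206 TPM in NC and 1243 ± 201 TPM in SiCIRBP. Next to it was the catalytic beta subunit ATP5F1B with 972 ± 13.8 and 874 ± 46.8 TPM. Within NC, ATP5MF and ATP5F1B did not differ beyond their spread. ATP5F1E, the epsilon subunit of the F1 stalk, had the lowest level of that complex at 58.2 ± 5.79 and 74.7 ± 21.5 TPM. COX4I1, the ubiquitous form of subunit 4, was highest in complex IV at 989 ± 30.4 and 1073 ± 76.1 TPM, and COX7B, a small subunit needed for assembly, was lowest at 46.0 ± 2.15 and 55.5 ± 8.11 TPM. UQCRFS1, the Rieske iron-sulfur protein, was the lowest complex III gene at 68.8 ± 4.63 and 83.6 ± 14.2 TPM. These are levels per length and not differences between groups. Their order also rests on the assigned length, taken here as estimated count over TPM relative to the median gene. It was 1.40 for ATP5F1E, 1.34 for NDUFV3 and 1.30 for UQCRFS1, but 0.061 for ATP5MF and 0.075 for UQCRB. In CPM, ATP5F1E (119 to 279) was above ATP5ME (23.1 to 44.7), whose length was 0.027.

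Tissue-restricted isoforms, among them the heart and muscle forms COX6A2 and COX7A1, were close to undetected. COX6A2 had no count in any library and COX7A1 and COX4I2 had 1 count each over all 6 libraries, whereas their ubiquitous partners COX6A1, COX7A2 and COX4I1 had TPM means of 968, 274 and 1031. COX8C, COX7B2, ATP5MGL, UQCRHL and COX6B2, the last with at most 22.3 counts in a library, were the other symbols under the minimum. A count of 0 in a library allows at most 3 counts, and these limits cover counting error only. NDUFA4L2 passed the minimum at 0.771, 0.466 and 1.25 CPM in the NC libraries and 1.16, 1.24 and 0.677 CPM in the SiCIRBP libraries, which overlap, and its log2 fold change of 0.09 ± 0.55 (SE) says little at that depth.

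Whether the subunit genes as a group were higher or lower after CIRBP siRNA was asked first over the 4 libraries. In the edgeR quasi-likelihood test, adjusted by Benjamini-Hochberg over 15421 genes, 19 of the 80 (23.8%) rose at an adjusted p under 0.05 and none fell, where 9.62% of all genes rose and 9.76% fell. Another 61 did not pass. DESeq2 on the same libraries also called 19 higher, 18 of its 20 calls being shared with edgeR, and 1 lower, NDUFS1 (10.6% and 11.8% of all genes). No subunit gene changed by 2-fold or more, a size that 1.82% of all genes reached upward and 1.8% downward. The log2 fold change was above 0 for 70 of the 80 genes, against 49.8% of all genes tested, and its median was 0.20 (1.15-fold), beside -0.00 over all genes. The range ran from -0.34 for NDUFS1 to 0.68 for ATP5MF.

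**Figure D2:**
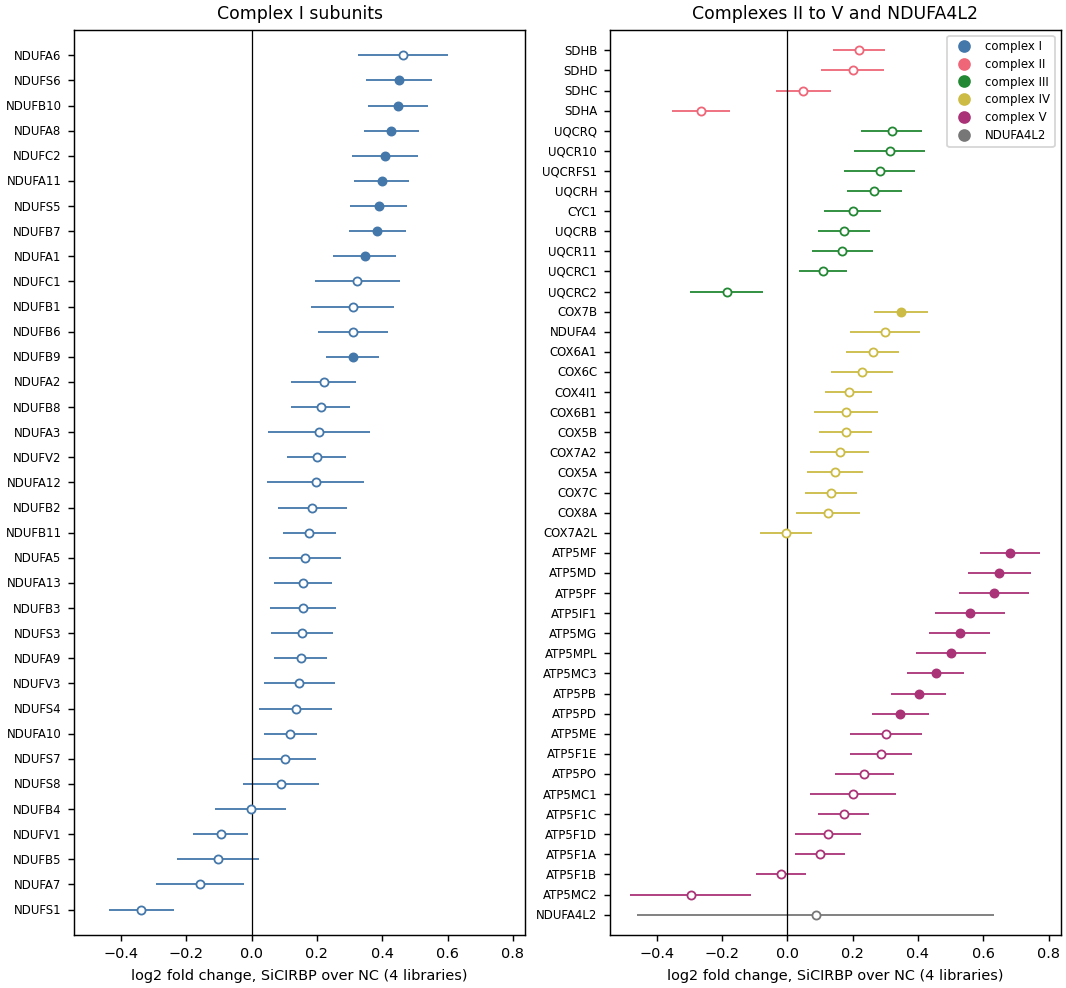
Log2 fold change of 79 of the 80 subunit genes, SiCIRBP over NC, from edgeR over 4 libraries, with SE as bars. Filled points passed an adjusted p under 0.05. The 19 filled points all lie right of 0, with 9 in complex I, 1 in complex IV and 9 in complex V.

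The 2-against-2 counts depended on single libraries. Without NC_2 or without NC_3 no subunit gene was called (of all genes 0.428% rose and 0.613% fell without NC_2, and 0.158% and 0.246% without NC_3). Without SiCIRBP_1, 41 rose and 6 fell (21.2% and 23.1% of all genes), and without SiCIRBP_3, 45 rose and 2 fell (19.1% and 21.1%). The median stayed between 0.17 and 0.25 in these 4 fits, each of which has a lone library assumed to vary like the other group.

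Complex V held the 6 largest fold changes. It had 9 of 18 genes called and a median of 0.32, with calls in the membrane part and the peripheral stalk and none in the F1 head. Of 8 genes for the c ring and membrane subunits, 5 rose (median 0.48), and of 4 genes for the peripheral stalk, which holds the head still against the turning ring, 3 rose (median 0.37). None of the 5 F1 head genes was called (median 0.12), and the only inhibitor gene, ATP5IF1, rose.

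ATP5MF encodes membrane subunit f and lies at chr7:99448475-99466331 on the minus strand (GRCh38). It measured 118, 94.9 and 84.1 CPM in NC_1, NC_2 and NC_3 and 146, 123 and 141 CPM in SiCIRBP_1, SiCIRBP_2 and SiCIRBP_3. All SiCIRBP values were above all NC values, NC_1 and SiCIRBP_2 being close, and the log2 fold change over 4 libraries was 0.68 ± 0.09 (adjusted p = 0.00828, edgeR). Over 6 libraries the log2 fold change was 0.47 ± 0.15 and did not pass (adjusted p = 0.138, edgeR). With the length adjustment described below and a replicate block it was 0.094 over 6. The gene shares 177 exon bases with the read-through gene ATP5MF-PTCD1, whose own log2 fold change was -0.38 ± 0.20, and the 2 summed gave 0.54.

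ATP5MD, a small subunit of the membrane part, lies at chr10:103389041-103396492. Its values were 62.8, 55.2 and 48.9 CPM in the NC libraries and 80.1, 121 and 83.0 CPM in the SiCIRBP libraries, which did not overlap. The log2 fold change was 0.65 ± 0.10 (adjusted p = 0.0106, edgeR over 4 libraries) and 0.77 ± 0.19 over 6. ATP5PF encodes coupling factor 6 of the peripheral stalk at chr21:25716503-25735673, and was at 73.5, 61.0 and 53.4 CPM against 83.8, 155 and 93.6 CPM, SiCIRBP_2 being far the highest library. Its log2 fold change was 0.63 ± 0.11 (adjusted p = 0.0141, edgeR). It shares 413 exon bases with GABPA on the opposite strand, a gene at 21.9 to 28.5 CPM whose log2 fold change was -0.09 ± 0.12, and whether strand was used in counting is not given in the sources used here. Other called genes share exon bases with opposite-strand genes too, among them ATP5PB with WDR77 (350 bases), ATP5PD with KCTD2 (340) and NDUFA1 with RNF113A (341). These neighbours had 45.63%, 38.55% and 31.35% as many counts as the called gene, and their part was not tested.

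ATP5IF1, the inhibitor that stops the enzyme from running backwards, lies at chr1:28236109-28246906. It was at 86.8, 73.9 and 61.8 CPM in NC and 99.3, 96.4 and 100.6 CPM in SiCIRBP, a narrow SiCIRBP group above all NC libraries, with a log2 fold change of 0.56 ± 0.11 (adjusted p = 0.0185, edgeR). The membrane subunits ATP5MG (subunit g, chr11:118401154-118431496) and ATP5MPL (chr14:103912288-103928269) behaved alike in their order of libraries. ATP5MG measured 108, 89.4 and 78.6 CPM against 121, 217 and 121 CPM. ATP5MPL measured 43.3, 38.3 and 33.8 CPM against 49.2, 71.9 and 52.8 CPM. In both genes no SiCIRBP library reached down to NC_1, the highest NC library, and the log2 fold changes were 0.53 ± 0.09 and 0.50 ± 0.11 (adjusted p = 0.0157 and 0.0251, edgeR).

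The c ring, through which the protons pass, is encoded by 3 genes for the same mature protein. ATP5MC3 (chr2:175176258-175184607) rose, from 167, 140.0 and 125 CPM to 179, 222 and 184 CPM, a log2 fold change of 0.45 ± 0.09 (adjusted p = 0.0193, edgeR). ATP5MC1 had a log2 fold change of 0.20 ± 0.13 (adjusted p = 0.315). ATP5MC2 had -0.30 ± 0.18 (adjusted p = 0.291), with SiCIRBP_3 at 112 CPM and the other 5 libraries between 163 and 197 CPM. The stalk genes ATP5PB and ATP5PD also rose, by 0.40 ± 0.08 and 0.35 ± 0.09 (adjusted p = 0.0232 and 0.0382, edgeR), but ATP5PD overlapped between groups, with NC_1 at 105 and SiCIRBP_3 at 104 CPM. The catalytic head gene ATP5F1B was at 1098, 1097 and 1037 CPM in NC and 1061, 1086 and 1044 CPM in SiCIRBP, a log2 fold change of -0.02 ± 0.08. In TPM it was lower in every SiCIRBP library (906, 821 and 897) than in NC (977, 983 and 957). On log2(TPM + 1) it gave -0.11 over 4 libraries and did not pass (adjusted p = 0.299, limma), where the median over all genes was -0.08. ATP5F1A was at 569, 539 and 501 against 555, 615 and 558 CPM, a log2 fold change of 0.10 ± 0.08.

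**Figure D3:**
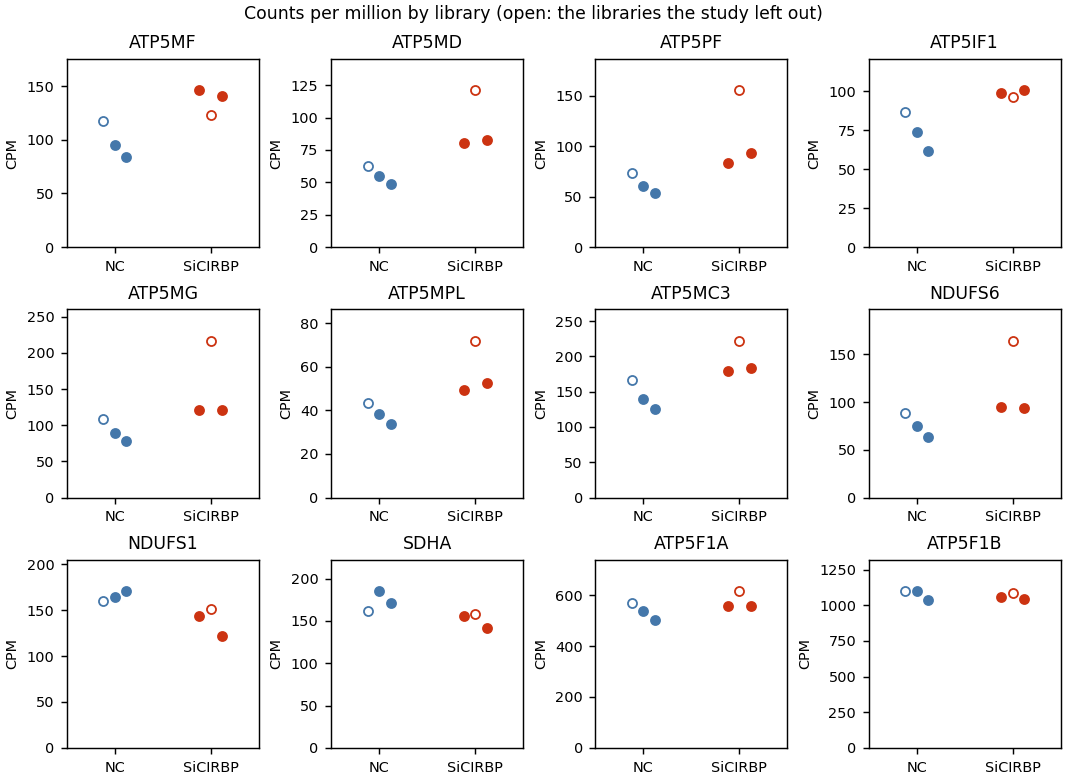
CPM by library for 8 called genes and 4 that did not pass (NDUFS1, SDHA, ATP5F1A, ATP5F1B), with NC in blue and SiCIRBP in red and open points for NC_1 and SiCIRBP_2. In the 8 called genes each SiCIRBP point lies above each NC point, as in ATP5MD, where 62.8 CPM is the highest NC and 80.1 CPM the lowest SiCIRBP value. ATP5F1A and ATP5F1B overlap.

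In complex I, 9 of 36 genes rose (median 0.20) and all 9 are accessory subunits, which surround the catalytic core. Accessory genes had 9 of 29 called and a median of 0.21. None of the 7 nuclear core genes, which carry the flavin and the iron-sulfur clusters, was called, and their median was 0.10. Whether core and accessory genes differ was not tested.

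NDUFS6, an accessory subunit at the joint of the NADH module, is at chr5:1801400-1816605. It measured 88.5, 74.6 and 63.7 CPM in NC and 94.6, 164 and 94.4 CPM in SiCIRBP, with SiCIRBP_2 far above the rest and no overlap. The log2 fold change was 0.45 ± 0.10 (adjusted p = 0.0283, edgeR). The other 8 called were NDUFB10, NDUFA8, NDUFC2, NDUFA11, NDUFS5, NDUFB7, NDUFA1 and NDUFB9, with log2 fold changes from 0.45 ± 0.09 for NDUFB10 to 0.31 ± 0.08 for NDUFB9. NDUFC2, a membrane arm subunit, was the only one of the 9 whose groups overlapped, with NC_1 at 129.9 CPM above SiCIRBP_3 at 124 CPM. NDUFA6 had a larger log2 fold change than these, 0.46 ± 0.14, but did not pass (adjusted p = 0.0579).

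Among the core genes, NDUFS1, the largest iron-sulfur subunit of the NADH module (chr2:206114817-206159603), gave 160.3, 164 and 171 CPM in NC and 143, 151 and 121 CPM in SiCIRBP. The SiCIRBP libraries were all below the NC libraries, and the log2 fold change of -0.34 ± 0.10 did not pass in edgeR (adjusted p = 0.0597). NDUFV2, NDUFS3, NDUFS7 and NDUFS8 had log2 fold changes between 0.09 and 0.20, and NDUFV1, which binds NADH and flavin, had -0.10 ± 0.09. Core genes thus lay on both sides of 0, and with TPM or after the length adjustment described below NDUFS7 and NDUFS8 were just under 0.

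Complex II, the succinate dehydrogenase, had no call among its 4 genes (median 0.12). SDHA, the flavoprotein that oxidizes succinate, measured 161, 185 and 172 CPM in NC and 156, 158 and 141 CPM in SiCIRBP, all SiCIRBP libraries being lower. Its log2 fold change of -0.26 ± 0.09 did not pass in edgeR (adjusted p = 0.0804), and on log2(TPM + 1) it was -0.45 and passed in limma (adjusted p = 0.0355). SDHA has 3 pseudogene copies of closely like sequence in the table, SDHAP1, SDHAP2 and SDHAP3, together holding 29.04% as many counts as SDHA itself, and SDHAP2 rose by a log2 of 0.98 ± 0.13 (adjusted p = 0.00726, edgeR). The 4 rows summed overlapped between the groups (212, 226 and 214 CPM in NC, 213, 190.4 and 198 CPM in SiCIRBP) with a log2 difference of -0.10 over the 4 libraries, so the SDHA value is uncertain. SDHB, the iron-sulfur subunit, was at 116, 111 and 107 CPM against 127, 125 and 128 CPM, without overlap, and had 0.22 ± 0.08 (adjusted p = 0.0938). The membrane anchors SDHC and SDHD had 0.05 ± 0.08 and 0.20 ± 0.10 (adjusted p = 0.715 and 0.184), with overlapping groups.

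In complex III none of 9 genes was called (median 0.20) although 8 were above 0. The nearest to the threshold was UQCRQ, a small ubiquinone-binding subunit, with 0.32 ± 0.09 (adjusted p = 0.0549). UQCRB measured 169.8, 162 and 156 CPM in NC and 184, 223 and 174 CPM in SiCIRBP and had 0.17 ± 0.08, and UQCRFS1 had 0.28 ± 0.11, neither past the threshold. The core protein gene UQCRC2 went the other way, with NC between 151 and 152 CPM and SiCIRBP at 147, 123 and 119 CPM (log2 fold change -0.19 ± 0.11, adjusted p = 0.273).

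Complex IV had 1 call among 12 genes (median 0.18), COX7B on chromosome X (chrX:77899438-77907373). It was at 76.6, 61.7 and 60.5 CPM in NC and 78.3, 116 and 77.2 CPM in SiCIRBP, with the lowest SiCIRBP library only just over NC_1, and rose by a log2 of 0.35 ± 0.08 (adjusted p = 0.0332, edgeR). Of the ubiquitous isoforms, COX4I1, COX6A1, COX7A2, COX8A, COX6B1 and NDUFA4 had log2 fold changes between 0.12 and 0.30, none past the threshold. COX4I1 was at 352, 334 and 324 CPM against 377, 472 and 373 CPM, which do not overlap.

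Across all 6 libraries the direction was the same but the test gave no call. The members had a median log2 fold change of 0.31 (0.01 over all genes), with 74 of 80 above 0, yet edgeR's quasi-likelihood test called 0 of them and 0% of all 15217 genes, the smallest adjusted p of a member being 0.101 (ATP5MD). At an unadjusted p under 0.05 there were 25 of the 80 members, all 25 higher, and 3603 genes in all (23.7% of those tested). DESeq2 over the same 6 libraries called 4 members higher (ATP5MD, ATP5MG, ATP5MPL and ATP5PF, adjusted p from 0.00801 to 0.0452) and none lower, where it called 4.6% of all genes higher and 5.17% lower.

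All 3 SiCIRBP libraries lay above all 3 NC libraries in 36 of the 80 genes (45%), and below in 3 (3.75%), which were SDHA, UQCRC2 and NDUFS1. Over all genes 16.2% lay above and 16.6% below. Among the 19 genes that rose, ATP5PD and NDUFC2 were the exceptions with overlap.

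NC_1 and SiCIRBP_2 took no part in the 4-library fit and share no library with it. In that pair, on log2(CPM + 1), 72 of the 80 genes (90%) were higher in SiCIRBP_2, where 48.8% of all genes were. The median difference was 0.44 (-0.01 over all genes) and ran from -0.36 (NDUFV1) to 1.07 (ATP5PF). All 19 genes that rose in the 4-library fit were higher in SiCIRBP_2 than in NC_1, with a median of 0.53, and the other 61 had a median of 0.42. The share among all genes called higher in that fit is not given here. These are single libraries, and SiCIRBP_2 had both the lowest CIRBP level and the highest interferon-stimulated sum, whose part was not tested.

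Libraries differed within groups as well. Against the mean of NC_2 and NC_3 the 80 genes had a median difference of 0.17 in NC_1, 0.22 in SiCIRBP_1, 0.57 in SiCIRBP_2 and 0.21 in SiCIRBP_3, and medians over all genes lay between -0.01 and 0.00. NC_1 thus lay nearly as far above NC_2 and NC_3 as SiCIRBP_1 and SiCIRBP_3 did. Summed over the 80 genes, CPM was 9656, 9094 and 8562 in the NC libraries and 10084, 12477 and 9833 in the SiCIRBP libraries, which did not overlap, and an exact two-sided permutation test gave p = 0.1, the smallest that 3 against 3 allows.

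**Figure D4:**
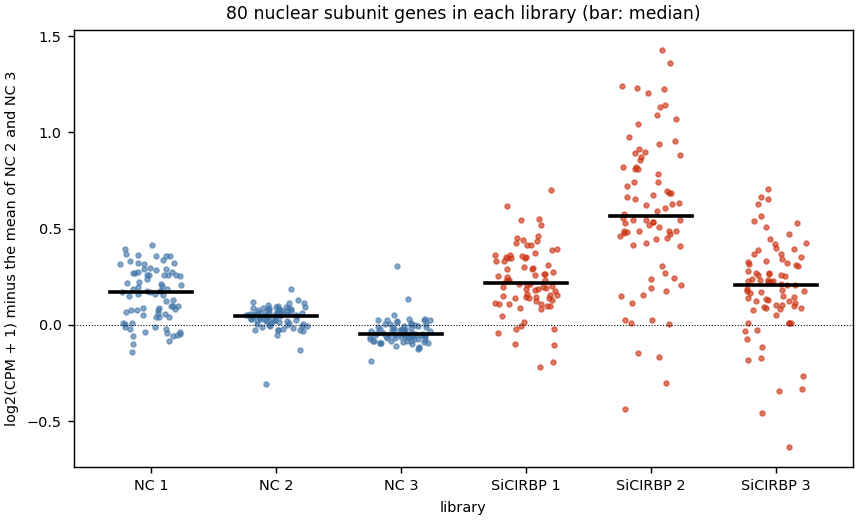
Log2(CPM + 1) of each of the 80 subunit genes minus the mean of NC_2 and NC_3, by library, with a bar at the median. NC_1 (median 0.17) lies close to SiCIRBP_1 (0.22) and SiCIRBP_3 (0.21), and SiCIRBP_2 (0.57) is highest with the widest spread.

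Most subunit transcripts are short, and fold changes over all genes were higher for shorter transcripts. A transcript length was taken as the estimated count divided by TPM, relative to the median gene, and its median was 0.232 for the members (79 with a value) and 1.01 for all genes. Of all genes, the shortest quintile had a median log2 fold change of 0.12 with 16.4% called higher, and the longest quintile -0.18 with 6.09% called higher. In the shortest quintile were 65 of the 79 members, with a median of 0.21 and 17 of the 19 calls. Over all 6 libraries the median of all genes was 0.20 in the shortest and -0.21 in the longest quintile. Members in the shortest quintile had a median of 0.32 over 6 libraries. Fragmentation and RNA integrity of the single libraries are not given in the sources used here, and their part was not tested.

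When the trend with length was removed within each library, the median of the members became 0.062 (0.0083 over all genes), with 53 of 80 above 0. The test then called 7 of them higher and none lower (8.75%, where 8.81% of all genes were higher and 7.55% lower). These 7 were ATP5MC3, ATP5MD, ATP5MF, ATP5MG, ATP5PB, ATP5PF and COX7B, all among the 19. Complex V had a median of 0.24 and 6 calls, complexes I, II, III and IV had medians of 0.058, 0.030, 0.087 and 0.0025, and no complex I gene was called. On log2(TPM + 1) limma called ATP5MC3, ATP5MD, ATP5MF, ATP5MG, ATP5PB, ATP5PF and NDUFA8 higher and SDHA lower (2.81% and 5.03% of all genes), with a median of 0.11 beside -0.08 over all genes. Summed TPM of the F1 head genes was 1946, 1868 and 1803 in NC and 1793, 1742 and 1796 in SiCIRBP, lower without overlap, while that of the c ring and membrane genes was 3667, 3208 and 2925 in NC and 3847, 4240.5 and 3930.5 in SiCIRBP, higher without overlap (exact permutation p = 0.1 for each). In CPM the F1 head sums overlapped and were on average higher in SiCIRBP. The direction of the F1 head sum thus depends on the scale, and that of the membrane sum does not. Over the 4 libraries the summed TPM differed by a log2 of -0.032 for the F1 head and 0.34 for the membrane genes. The median over all genes on log2(TPM + 1) was itself -0.08. ATP5F1B, at a mean of 923 TPM, weighs most in the F1 head sum. Taken as single genes, the 5 F1 head genes had a median log2 fold change of 0.075 on log2(TPM + 1) over the 4 libraries.

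**Figure D5:**
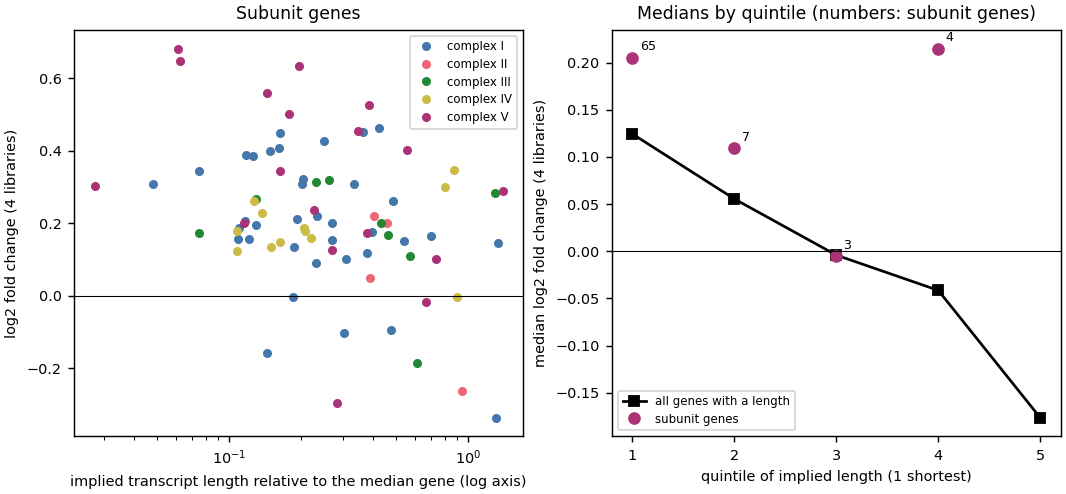
Left, log2 fold change over 4 libraries against implied transcript length relative to the median gene (log axis) for the subunit genes, coloured by complex. Right, median log2 fold change in each quintile of length for all genes (squares) and for subunit genes (circles, with their number), falling from 0.12 to -0.18 for all genes, while 65 subunit genes in the shortest quintile have a median of 0.21.

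The same length gives a rough view of transcript form. The assigned length was higher in all 3 SiCIRBP libraries than in all NC libraries for 2 of 79 genes, SDHA among them, and lower for 2, ATP5MC3 and COX7A2L (6.25% and 13.1% of all genes). For SDHA the length relative to the median gene went from 0.929, 0.931 and 0.909 in NC to 0.9987, 0.948 and 0.945 in SiCIRBP.

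The subunits made inside mitochondria were tested with the same fit. Of the 13 mitochondrially encoded genes 7 rose and none fell over the 4 libraries (median 0.51), where 9.62% of all genes rose and 9.76% fell. With the length adjustment 6 rose and 2 fell, MT-ND4L and MT-CO2 (median 0.26, with 8.81% and 7.55% of all genes), and DESeq2 over 6 libraries called 1 higher. MT-CYB, the only mitochondrially encoded subunit of complex III, measured 682, 570.3 and 572 CPM in NC and 908, 592 and 1068 CPM in SiCIRBP and rose by a log2 of 0.79 ± 0.10 (adjusted p = 0.00688, edgeR). MT-ND2, a proton-pumping complex I subunit, was at 2269.6, 1886 and 1747 CPM against 3025, 2134 and 2964 CPM (0.72 ± 0.08, adjusted p = 0.00594). In both genes SiCIRBP_2 lay among the NC values, whereas it was the highest of the 6 libraries in 66 of the 80 nuclear subunit genes. The summed level of the 13 was 24714, 25574 and 25275 CPM in NC and 27945, 19535 and 29406 CPM in SiCIRBP, with SiCIRBP_2 the lowest of all libraries.

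Of 61 assembly factors, which build the complexes without staying in them, 9 rose and 2 fell (14.8% and 3.28%, median 0.16), against the same 9.62% and 9.76% of all genes. With the length adjustment 4 rose (6.56%) and 1 fell, beside 8.81% and 7.55% of all genes, and the median was 0.044. COX7A2L is a subunit gene as well as a listed factor. For complex I, NDUFAF2 and TIMMDC1 rose by 0.54 ± 0.12 and 0.45 ± 0.11 on the log2 scale. For complex III, UQCC3 and UQCC1 rose by 0.64 ± 0.11 and 0.40 ± 0.11, and TTC19 fell by 0.42. For complex IV, SCO2, a copper carrier, rose by 1.86 ± 0.38 from at most 0.841 CPM in NC, and LRPPRC, which stabilizes mitochondrial mRNAs, fell by 0.27. TMEM70, which helps to assemble the c ring, rose by 0.64 ± 0.16 with NC_1 at 43.3 CPM above SiCIRBP_1 at 41.3 CPM. With the length adjustment no complex I or complex V factor was called, and no complex IV factor was called lower. NDUFAF2, TIMMDC1, TMEM70 and LRPPRC were therefore not called there.

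Mitochondrial ribosomal proteins, which are also nuclear-encoded, had 24 of 78 higher and none lower (30.8%, median 0.25, beside 9.62% and 9.76% of all genes), with MRPL50 at 0.73 ± 0.17 and MRPS17 at 0.71 ± 0.11. With the length adjustment 6 were higher (7.69%, under the 8.81% of all genes) with a median of 0.13, and DESeq2 over 6 libraries called 7. Electron carriers and coenzyme Q synthesis had 4 of 16 higher and 1 lower (25% and 6.25%, beside 9.62% and 9.76% of all genes). The counts were the same with the length adjustment (8.81% and 7.55% of all genes). Cytochrome c itself (CYCS) went from 127, 102 and 93.7 CPM in NC to 154, 166 and 164 CPM in SiCIRBP, and COQ3, a methyltransferase of coenzyme Q synthesis, rose by 0.71 ± 0.15, whereas the kinase-like COQ8A fell by 0.57. Among 18 enzymes of the tricarboxylic acid cycle and its entry, 2 were called higher (11.1%, close to the 9.62% of all genes), IDH3A at 0.48 ± 0.09 and PDHA1 at 0.31 ± 0.08, and SUCLG2 fell by 0.48 on the log2 scale. PDHA1 did not pass with the length adjustment (adjusted p = 0.112, edgeR).

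The regulators of the nuclear genes gave 2 calls, 1 higher and 1 lower (6.25% each of those tested, beside 9.62% and 9.76% of all genes). Of 18 listed, PPARGC1A and ESRRG had no count in any library and 16 were tested, of which TFB2M, a mitochondrial transcription factor, rose by 0.55 ± 0.12 and the mitochondrial RNA polymerase POLRMT fell by 0.49 (median of the list 0.03). NRF1, GABPA and ESRRA had log2 fold changes of 0.14 ± 0.10, -0.09 ± 0.12 and 0.01 ± 0.09, none past the threshold (adjusted p = 0.378, 0.635 and 0.965, edgeR).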

How the data were processed

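RNA-seq libraries of human immortalized ventricular cardiomyocytes, 3 NC and 3 SiCIRBP, were grouped by their labels. The authors deposited an estimated count per gene and library (reads assigned, not normalized, not always whole) and a TPM value per gene and library, which is further divided by an assigned transcript length. The submitters' processing notes name fastp, HISAT, RSEM and hg38, without versions or order, and the annotation release is not given in the sources used here. Deposited columns of the authors' own comparison (fold changes and p-values) were not used.

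Counts were rounded and tested over all genes with edgeR 4.0.16 in R 4.3.3 (TMM, filterByExpr, glmQLFit and glmQLFTest, Benjamini-Hochberg adjustment, adjusted p under 0.05), on NC_2, NC_3, SiCIRBP_1 and SiCIRBP_3, and again on all 6 libraries. SE was obtained from the F statistic, as the size of the change over the root of F. Limma 3.58.1 tested log2(TPM + 1) and DESeq2 1.42.0 the rounded counts. For length, a smooth trend of each library's deviation against log2 length was fitted and entered as an offset. Exact permutation tests used scipy 1.17.1. Gene locations are from GENCODE 29 (GRCh38) and sequences from RefSeq (GRCh38.p14). Motifs were searched on both strands.

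Named genes were CIRBP, the 8 largest calls in each direction whose libraries do not overlap among the 4 (none lower existed), all complex II genes, the highest and lowest TPM of each complex, isoform pairs, complex I core genes, the ATP synthase inhibitor, the extremes between NC_1 and SiCIRBP_2, and up to 2 calls per direction of each other list. Others named were chosen after their values were seen, and 1 complex I gene is counted but not reported by name here. The members and all lists were chosen with earlier results of these data known.

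The procedures were tested on simulated data with 200 changed genes. Over 15421 genes with 2 against 2 libraries, edgeR recovered 24% of genes changed by a log2 of 0.5 and 76% of those changed by 1.5, and 18.0% of its calls were unchanged genes. Over 15217 genes with 3 against 3, it recovered 1% and 72%, with 11.0% of calls unchanged. Totals of 25726259 to 29919566 counts make counting error small for all members except NDUFA4L2. The alternatives were other libraries, a replicate block, other tools, size factors, count filters, TPM scales and length offsets.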

Additional observations from a re-analysis of the deposited data

How the results depend on the processing

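The 19 rises over 4 libraries became 0 over all 6 libraries, 0 over 6 with the replicate block, 0 over 6 with the length offset and block together, 4 with DESeq2 over 6 libraries, and 7 with the length offset or with limma on log2(TPM + 1) or log2(TPM + 0.1). They were 19 with DESeq2 over 4 libraries or RLE size factors, 20 with at least 10 counts in every library and 22 without a filter. Calls of lower genes went from 0 to 1 with DESeq2 over 4 libraries (NDUFS1), 1 with limma on either TPM scale (SDHA) and 3 without a filter (ATP5MC2, NDUFS1 and SDHA). Leaving out each library gave 0 to 45 higher and 0 to 6 lower from the 4 libraries, and 0 to 1 higher and 0 lower from the 6 (ATP5MD, without SiCIRBP_2). Over 6 libraries edgeR's 0 calls became 4 with DESeq2. The cause of these shifts was not tested.

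The median log2 fold change of the members (0.20) was 0.31 over 6 libraries, 0.31 with DESeq2 over 6, 0.30 over 6 with the replicate block, 0.062 over 4 with the length offset, 0.069 over 6 with offset and block, and 0.11 on both TPM scales, on which all genes had -0.08 and -0.10. The block was fitted only over 6 libraries, so that its values set beside those over 4 change the libraries too. In the same order, complex I (0.20) gave 0.34, 0.34, 0.32, 0.058, 0.076 and 0.10 (both TPM scales). Complex II (0.12) gave 0.19, 0.19, 0.19, 0.030, 0.042 and -0.028. Complex III (0.20) gave 0.31, 0.31, 0.29, 0.087, 0.13 and 0.11. Complex IV (0.18) gave 0.29, 0.30, 0.29, 0.0025, -0.0016 and 0.082 (0.083 on TPM + 0.1). Complex V (0.32) gave 0.43, 0.43, 0.43, 0.24, 0.080 and 0.23. Leaving out a library moved the medians between 0.17 and 0.25 from the 4 and 0.15 and 0.38 from the 6 for all members, and between 0.18 and 0.24 and 0.15 and 0.41 for complex I. The ranges were 0.063 to 0.17 and 0.070 to 0.24 for complex II, 0.14 to 0.25 and 0.17 to 0.43 for complex III, 0.13 to 0.22 and 0.15 to 0.35 for complex IV, and 0.29 to 0.39 and 0.26 to 0.53 for complex V.

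Among all 80 members the sign turned for 17 with the length offset, 18 over 6 with offset and block, 6 on either TPM scale and 4 over 6 libraries with or without the block. Those named in the text by rule are given next, and ATP5MC1 and ATP5F1D, at 0.20 and 0.12, both gave -0.019 with the length offset. On TPM + 1, TPM + 0.1 and the length offset, SDHC gave -0.18, -0.18 and -0.057, NDUFS7 -0.064, -0.065 and -0.032, and NDUFS8 -0.0029, -0.0029 and -0.074. With the length offset UQCRB gave -0.072, COX7A2 -0.0035, COX8A -0.10 and COX6B1 -0.044. With offset and block, UQCRB gave -0.12, COX6A1 -0.0097, COX8A -0.027, COX6B1 -0.13, NDUFS3 -0.047, NDUFS7 -0.070 and NDUFS8 -0.012. Over the fits without 1 library, SDHC went from -0.0013 (without NC_3) to 0.32, NDUFA4L2 from -0.44 (without NC_2, and -0.37 without SiCIRBP_1) to 0.97, and NDUFS8 from -0.079 (without SiCIRBP_1) to 0.38.

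The replicate numbers are shared between the groups but nothing says that they pair the samples. The correlations of the deviations of same-numbered libraries were -0.12, 0.01 and -0.03 over 15217 genes, and the block left the count over 6 libraries at 0. Depth limits NDUFA4L2 and the symbols under the minimum, and with 2 libraries per group the spread rests mainly on the trend across genes.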
